A study of Mus musculus with 11 samples.

Results

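The gene set comprised 10 proteoglycan core protein genes, picked by symbol from the 28692 genes of the feature lists: *Dcn*, *Bgn* and *Aspn* (class I small leucine-rich proteoglycans), *Lum*, *Fmod* and *Prelp* (class II), *Ogn* (class III), the large hyaluronan-binding proteoglycan *Vcan*, and the glypicans *Gpc1* and *Gpc4*. All 10 were found, each under 1 Ensembl identifier. They were followed through stromal, tubular, glomerular, endothelial and immune cells of 11 droplet scRNA-seq libraries of mouse kidney. The libraries were 5 from naive controls, 3 from kidneys 28 days after unilateral ischemia/reperfusion (UIR; left renal pedicle clamped for 30 min) and 3 from kidneys 28 days after unilateral ureteral obstruction (UUO; irreversible ligation of the left ureter). Mice were male C57Bl/6, 10 weeks old at injury, with controls of the same age, strain and sex. The methods count as many mice as libraries in each group. The control libraries carried 3 different sets of names, and no batch was given for the injured ones, so that any batch between control and injured libraries cannot be told apart from injury.

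Small leucine-rich proteoglycans are secreted proteins of the interstitial matrix whose leucine-rich repeats bind collagen fibrils and regulate their spacing and growth. Several also bind growth factors of the TGF-β family. Versican joins hyaluronan in a loose, hydrated matrix, whereas glypicans are heparan sulfate proteoglycans held on the cell surface by a lipid anchor, where they take part in growth factor and Wnt signaling. In the kidney interstitium, fibroblasts are a known source of the small members, and their accumulation accompanies fibrosis.

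In the GRCm38 annotation, 6 members lay in pairs. *Dcn* (ENSMUSG00000019929; chr10:97479609-97518143, plus strand) and *Lum* (ENSMUSG00000036446; chr10:97565128-97572703, plus strand) were separated by 47.0 kb with no protein-coding gene between them. *Aspn* (ENSMUSG00000021388; chr13:49544443-49567565, plus strand) and *Ogn* (ENSMUSG00000021390; chr13:49608046-49624501, plus strand) were 40.5 kb apart, with *Omd*, a further small leucine-rich proteoglycan gene, between them, and both overlapped *Cenpp* on the opposite strand. *Prelp* (ENSMUSG00000041577; chr1:133910304-133921414, minus strand) and *Fmod* (ENSMUSG00000041559; chr1:134037254-134048277, plus strand) were 116 kb apart on opposite strands. The other 4 lay apart from other members: *Bgn* (ENSMUSG00000031375; chrX:73483602-73495933, plus strand), *Gpc4* (ENSMUSG00000031119; chrX:52053021-52165252, minus strand), *Vcan* (ENSMUSG00000021614; chr13:89655312-89742509, minus strand) and *Gpc1* (ENSMUSG00000034220; chr1:92831645-92860779, plus strand). *Gpc1*, *Vcan* and *Prelp* overlapped antisense transcripts on the opposite strand, and *Gpc1* also overlapped the protein-coding gene *Ankmy1* there.

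Promoters of 7 of the 10 members were in the RefSeq table (GRCm38.p6; 250 bases before to 50 bases after the start), and *Dcn*, *Lum* and *Gpc1* had no entry. Shown here, 5′ to 3′ on the gene's strand, are those of the 4 neighboring members whose levels within fibroblasts differed between UUO and UIR, as described further on, and that of *Bgn*, whose level there did not pass the same test. Capitals mark the letters TATAAA (the core of a TATA box), CAGAC (the core that Smad proteins bind) or GGGCGG (a GC box), searched on both strands.
Aspn, chr13:49544193-49544492, plus strand: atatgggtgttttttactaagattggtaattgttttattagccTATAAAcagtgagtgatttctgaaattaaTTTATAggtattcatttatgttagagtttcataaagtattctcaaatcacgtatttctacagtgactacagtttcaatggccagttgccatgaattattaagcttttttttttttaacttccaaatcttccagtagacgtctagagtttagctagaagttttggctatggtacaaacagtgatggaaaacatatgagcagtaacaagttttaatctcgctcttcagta
Ogn, chr13:49607765-49608064, plus strand: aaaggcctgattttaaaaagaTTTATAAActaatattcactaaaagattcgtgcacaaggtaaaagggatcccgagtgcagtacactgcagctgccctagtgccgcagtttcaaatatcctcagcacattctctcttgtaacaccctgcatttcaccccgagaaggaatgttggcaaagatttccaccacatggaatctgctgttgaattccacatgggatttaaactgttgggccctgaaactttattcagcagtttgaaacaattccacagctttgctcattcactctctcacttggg
Prelp, chr1:133921352-133921651, minus strand: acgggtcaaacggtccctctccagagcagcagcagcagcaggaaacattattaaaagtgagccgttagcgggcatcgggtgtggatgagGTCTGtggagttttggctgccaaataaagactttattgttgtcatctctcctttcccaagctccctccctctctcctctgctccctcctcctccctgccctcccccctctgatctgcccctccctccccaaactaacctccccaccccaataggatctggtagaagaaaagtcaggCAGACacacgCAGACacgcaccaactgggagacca
Fmod, chr1:134037004-134037303, plus strand: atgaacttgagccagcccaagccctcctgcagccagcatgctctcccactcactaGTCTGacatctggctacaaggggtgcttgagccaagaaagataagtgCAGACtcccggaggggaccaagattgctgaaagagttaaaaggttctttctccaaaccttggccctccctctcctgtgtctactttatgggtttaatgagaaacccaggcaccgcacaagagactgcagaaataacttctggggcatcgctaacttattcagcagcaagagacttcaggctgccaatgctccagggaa
Bgn, chrX:73483351-73483650, plus strand: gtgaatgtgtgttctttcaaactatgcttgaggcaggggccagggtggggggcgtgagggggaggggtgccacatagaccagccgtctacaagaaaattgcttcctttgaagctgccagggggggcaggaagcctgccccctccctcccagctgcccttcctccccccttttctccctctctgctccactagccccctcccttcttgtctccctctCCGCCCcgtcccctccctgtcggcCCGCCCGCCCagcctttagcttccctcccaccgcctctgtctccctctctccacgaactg
TATAAA was found 2 times in each of the *Aspn* and *Ogn* windows (in *Ogn* the matches on the 2 strands overlap) and in none of the other 5, against 13.6% of all 32851 promoters of this length with a match. CAGAC was found 3 times in *Prelp*, 2 times in *Fmod* and not in the other 5, and 49.6% of all promoters held it. GGGCGG was found 3 times in *Bgn*, 2 times in *Vcan* and 1 time in *Gpc4*, and 35.7% of all promoters held it. The AP-1 letters TGANTCA (7.81% of all promoters) and the CArG box (1.63%) had no match in any of the 7. These matches describe letters only.

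From 49503312 to 117043590 unique molecular identifiers (UMIs, each a captured transcript) were counted per library, and 1858 to 7443 cells per library were kept after filtering. Barcodes above the limit of 30% mitochondrial UMIs made up 56.9% to 78.9% of the called barcodes in controls, but 23.9% to 37.3% in UIR and 3.15% to 8.03% in UUO libraries, so the kept cells were a smaller and more selected part of the control libraries. No pair of libraries shared more than 18 kept barcodes (0.33% of the smaller library). Control replicate 1 stood apart from the other controls: it held 9 of the 13 control cells of the matrix-rich class Fibro 1. Cell classes were rebuilt by clustering without the 10 members, and the stromal classes were named from markers that exclude them. Fibro 1 (901 cells) was led by *Col1a1*, *Col3a1* and *Col1a2*, Fibro 2 (520 cells) by the contractile genes *Myh11*, *Rgs5* and *Lmod1*, and Fibro 3 (354 cells) by *Sfrp2* and *Art3*. Levels are given as CPM, the UMIs of a gene per 1000000 UMIs of the cells summed in a class of a library with at least 20 such cells. Reads came from the 3′ end, so a CPM was not divided by gene length and levels are compared between classes and groups, not between genes.

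The members had several distinct homes. With all libraries summed, Fibro 1 had the highest level of 8 of the 10 genes, although for *Gpc1* the order depended on the group. *Bgn* reached 4071 CPM there, followed by 1024 CPM in Fibro 3. *Dcn* stood at 2777 CPM in Fibro 1 and 43.9 CPM in Fibro 3, where most of the UMIs were in 1 cell. When cells were thinned to equal depth, the next class for *Dcn* was intercalated cells (1.94% of cells with a UMI). *Ogn* was at 359 CPM in Fibro 1 and 139 CPM in Fibro 2. *Prelp*, which encodes a basic matrix protein that ties collagen to basement membranes, was at 318 CPM in Fibro 1 and 23.5 CPM in Fibro 2, *Lum* at 245 CPM against 8.39 CPM in Fibro 3, and *Fmod* at 87.7 CPM against 5.77 CPM in a small tubular class marked by *Bst1*. These are sums over cells of unequal libraries and are given as a description.

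The other 4 members were shared with further cell types. *Aspn* was highest in the contractile class Fibro 2 (75.0 CPM), ahead of Fibro 1 (63.5 CPM) in the sum over all libraries. In UIR Fibro 2 was ahead (61.3 against 6.17 CPM) and in UUO Fibro 1 (112 against 95.5 CPM). *Vcan* was at 116 CPM in Fibro 1 and 101 CPM in monocytes. *Gpc1* was at 57.2 CPM in Fibro 1 and 55.4 CPM in podocytes. Fibro 1 was ahead in UIR (75.1 against 52.4 CPM) and podocytes in UUO (76.2 against 41.8 CPM). *Gpc4* was highest in a class named parietal epithelial from its markers (92.5 CPM) and an injury-associated tubular class marked by *C3* (80.4 CPM). This parietal class held 19 control, 270 UIR and 138 UUO cells. Its leading genes included *Igfbp2*, *Tagln*, *Map1b* and *Cp*, a naming marker of failed-repair tubular cells, so its name is not certain. When each cell was thinned to 1000 UMIs and scored for at least 1 UMI, the leading class stayed the same for 8 of the 10 genes. For *Gpc1*, podocytes came first (6.50% of cells against 5.93% in Fibro 1), and for *Gpc4* the *C3*-marked class came first (8.47%).

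**Figure D1:**
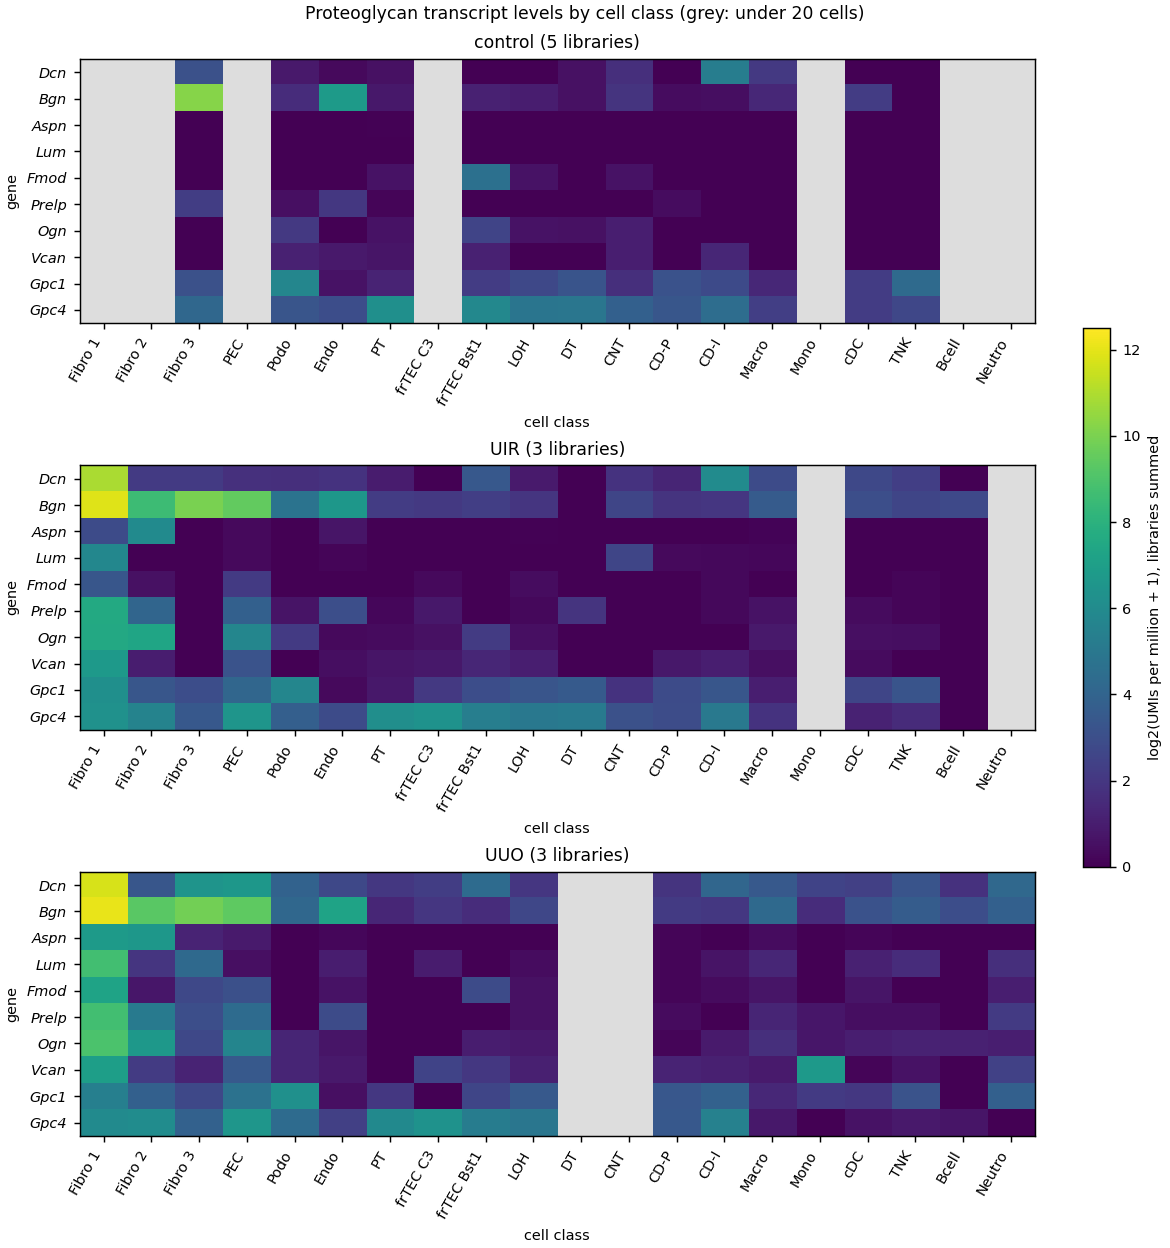
Level of each of the 10 genes (rows) in 20 cell classes (columns), as log2(CPM + 1) with the libraries of a group summed; the 3 panels are control, UIR and UUO, and grey marks classes with under 20 cells. Dcn and Bgn are the brightest rows in Fibro 1 in both injuries, and Aspn and Fmod are dim there in UIR. Gpc4 is spread over parietal, proximal tubular and other epithelial columns.

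The share of a member's UMIs held by stromal cells followed the same split. In UUO libraries stromal cells were 6.30% of kept cells, and they held 92.5% ± 3.3 (SD, n = 3) of the *Dcn* UMIs, 96.7% ± 0.83 of *Aspn*, 94.0% ± 4.3 of *Lum* and 90.3% ± 1.5 of *Fmod*. They held 89.5% ± 2.9 of *Prelp*, 89.9% ± 3.9 of *Ogn* and 80.0% ± 8.6 of *Bgn*. *Vcan* was divided between stromal cells (60.9% ± 10.0) and monocytes (22.6%). The glypicans were mostly outside the stroma, with 22.3% ± 10.0 of *Gpc1* and 21.5% ± 7.9 of *Gpc4* UMIs in stromal cells and 41.1% and 48.9% in the pool of tubular cells from the loop of Henle to the collecting duct, which includes unnamed tubular clusters. In controls, where stromal cells were 1.14% of kept cells, they held 53.7% ± 23.0 (n = 5) of *Bgn* UMIs, endothelial cells held 28.7%, and proximal tubule (PT) cells held 88.0% ± 1.8 of *Gpc4* UMIs.

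To ask how the kept cells as a whole changed, UMIs were summed over all kept cells of a library and compared across libraries with the quasi-likelihood test of edgeR, whose p-values were adjusted by Benjamini-Hochberg over 16102 genes. In these sums a larger share of cells and more transcripts per cell cannot be told apart. Against control, 8 members were higher and 1 lower in UIR, where 60.3% of all genes tested passed the same threshold (32.3% higher and 28.1% lower), and 9 were higher and 1 lower in UUO, where 71% passed (38% higher and 33% lower). The median log2 fold change of the 10 members was 2.35 in UIR and 3.23 in UUO, against 0.04 and 0.08 over all genes. Both comparisons used the same 5 controls. Summed over all barcodes instead, including empty droplets and those removed by the filters, 7 members were higher and 1 lower in UIR (67.5% of 17420 genes passed, 36.2% higher and 31.3% lower) and 9 were higher and 1 lower in UUO (78.1% passed, 41.8% higher and 36.3% lower). The medians of the members were then 1.08 and 3.04, against 0.07 and 0.10 over all genes. *Ogn* did not pass in UIR there (0.42 ± 0.23, adjusted p = 0.13 by edgeR), and *Gpc4* passed as lower in UIR with overlapping groups.

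*Dcn*, whose product binds collagen I fibrils and TGF-β, was at 24.4 CPM in control replicate 1 and between 1.42 and 3.44 CPM in the other 4 controls. It was at 59.4, 40.7 and 78.8 CPM in UIR and at 63.5, 207 and 183 CPM in UUO replicates 1, 2 and 3. All injured libraries lay above all controls. The log2 fold change was 2.69 ± 0.68 (SE; adjusted p = 0.0042) in UIR and 3.94 ± 0.69 (adjusted p = 0.00023) in UUO by edgeR. *Bgn*, the close relative of *Dcn*, ranged from 5.87 to 30.7 CPM in controls (median 17.5). It stood at 149, 147 and 143 CPM in UIR and 184, 215 and 309 CPM in UUO. It rose by 2.61 ± 0.33 and 3.22 ± 0.33 on the log2 scale, and the groups did not overlap. *Aspn*, which encodes the relative with an aspartate-rich N-terminus, was at 0 to 0.547 CPM in controls, at 1.24, 1.90 and 0.848 CPM in UIR and at 3.51, 8.21 and 7.48 CPM in UUO (log2 fold changes 2.48 ± 0.62 and 4.65 ± 0.56).

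Of the class II genes, *Lum*, needed for regular collagen spacing in the cornea, was nearly absent from controls: 2 UMIs were counted over all 5 libraries. It was at 1.56, 1.15 and 2.01 CPM in UIR and at 3.11, 20.2 and 32.1 CPM in UUO, and its ratio to control was 52.4 (exact 95% counting interval 14.3 to 437) for UIR and 581 (161 to 4803) for UUO. *Fmod* was the exception in UIR. It was at 0.150 to 2.43 CPM in controls and at 0.780, 0.499 and 0.353 CPM in UIR, within the control range (log2 fold change -1.27 ± 0.69, adjusted p = 0.13 by edgeR). In UUO it was at 2.91, 10.4 and 7.71 CPM, above every control, and rose by 2.29 ± 0.58. *Prelp* went from 0.203 to 1.15 CPM in controls to 6.94, 7.16 and 5.83 CPM in UIR and 12.4, 19.2 and 27.1 CPM in UUO, which was 3.21 ± 0.39 and 4.68 ± 0.37 higher on the log2 scale.

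*Ogn*, encoding mimecan, was at 5.90 CPM in control replicate 1 and at most 1.13 CPM in the other controls, and reached 8.82, 12.4 and 9.44 CPM in UIR and 11.97, 33.4 and 27.7 CPM in UUO. It rose by 1.999 ± 0.57 and 3.17 ± 0.56 on the log2 scale. *Vcan* was at 0.449 to 1.04 CPM in controls, at 4.82, 3.05 and 3.50 CPM in UIR and at 6.70, 8.61 and 9.14 CPM in UUO (log2 fold changes 2.23 ± 0.27 and 3.23 ± 0.26). *Gpc1* was at 3.39 to 4.84 CPM in controls, between 7.92 and 9.36 CPM in UIR and between 7.61 and 9.17 CPM in UUO, a change of 0.66 ± 0.13 and 0.56 ± 0.13. *Gpc4* was the member that fell: from 41.8 to 63.5 CPM in controls to 34.1, 30.1 and 27.6 CPM in UIR and 18.9, 15.02 and 17.97 CPM in UUO. Its log2 fold change was -1.12 ± 0.14 and -2.03 ± 0.15. Without control replicate 1 each of the calls against control over all kept cells was kept, and the log2 fold changes in UIR and UUO became 4.13 and 5.39 for *Dcn*, 4.01 and 6.18 for *Aspn*, 3.24 and 4.41 for *Ogn* and 3.80 and 5.27 for *Prelp*.

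**Figure D2:**
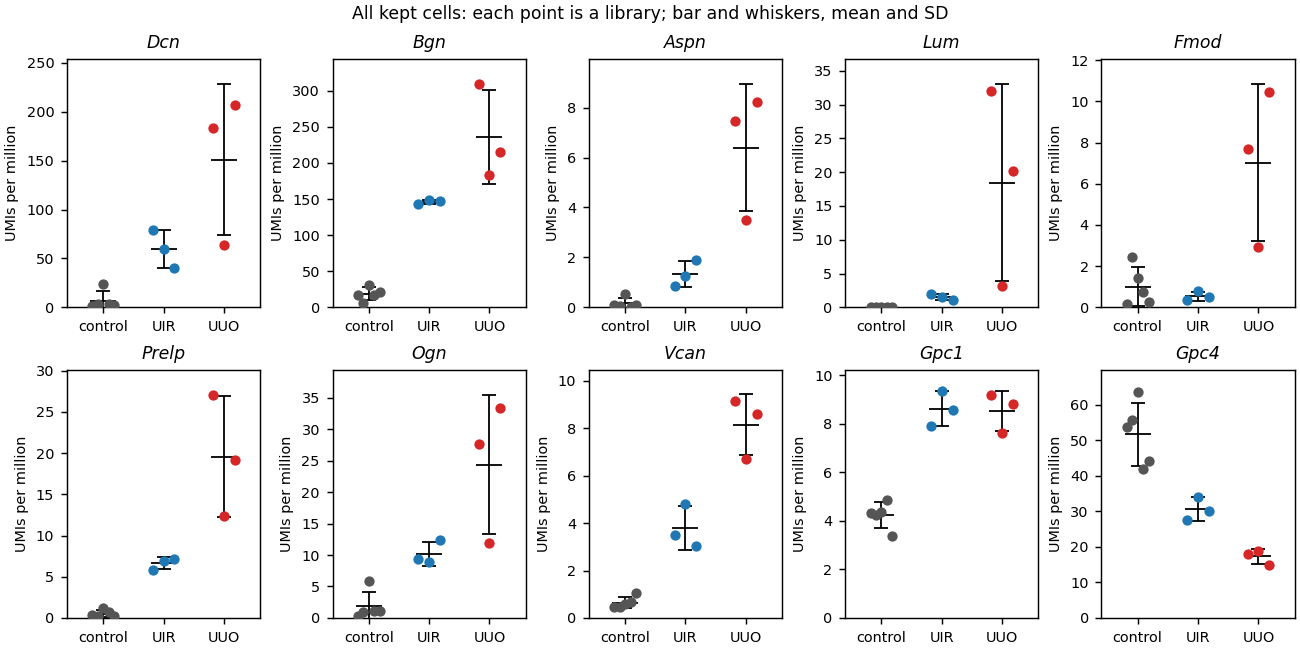
CPM (y axis, linear, from 0) of each gene in all kept cells; points are libraries (5 control, 3 UIR, 3 UUO), and the bar and whiskers are mean and SD. Dcn lies between 1.42 and 24.4 in controls and between 40.7 and 207 in injured libraries, while Gpc4 goes the other way, from 41.8 to 63.5 in controls to 15.02 to 18.9 in UUO.

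The PT share of the kept cells was also lower in injury: 50.9% in controls, 8.25% in UIR and 0.69% in UUO. It leaves out a shallow unnamed cluster whose markers scored highest for PT, with 1788 control, 1164 UIR and 87 UUO cells. The part of the PT share in the fall of *Gpc4* was not tested. Within PT cells *Gpc4* was at 58.6 to 92.4 CPM in controls, 70.8, 74.5 and 68.9 CPM in UIR and 73.7 and 35.0 CPM in the 2 UUO libraries with at least 20 PT cells. The PT levels of the 3 groups overlapped, with log2 fold changes of 0.00 ± 0.15 in UIR and -0.35 ± 0.30 in UUO (adjusted p = 0.99 and 0.65 by edgeR). With a mitochondrial limit of 15%, the change of *Gpc4* over all kept cells was 0.064 (adjusted p = 0.84) in UIR and -0.56 (adjusted p = 0.051) in UUO. The same limit also ended the UIR calls of *Aspn*, *Ogn* and *Gpc1* and the UUO calls of *Fmod* and *Gpc1*.

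Between the injuries, 5 members were higher in UUO than in UIR over all kept cells and 1 was lower, with 22.5% of all genes passing (9.19% higher and 13.4% lower). *Lum* differed by 3.47 ± 0.64, *Fmod* by 3.55 ± 0.67, *Aspn* by 2.16 ± 0.46, *Prelp* by 1.47 ± 0.32 and *Vcan* by 1.009 ± 0.24 on the log2 scale. For each of these 5 every UUO library lay above every UIR library, and the share of all genes that did so was not counted. *Gpc4* was lower (-0.91 ± 0.15). *Dcn* (1.25 ± 0.72, adjusted p = 0.24 by edgeR) and *Ogn* (1.17 ± 0.56, adjusted p = 0.16) overlapped between the injuries. Without control replicate 1 in the shared fit, both passed (adjusted p = 0.039 and 0.026). *Bgn* was higher in every UUO library than in every UIR library but did not pass, and *Gpc1* overlapped and did not pass.

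The next comparison asked whether stromal cells themselves differed, by summing Fibro 1, 2 and 3 within each library. Control replicate 5, with 3 stromal cells, was below the minimum of 20 cells, leaving 4 controls. *Bgn* was at 979 to 1669 CPM in these controls, at 2482, 2061 and 2276 CPM in UIR and at 3055, 2851 and 2917 CPM in UUO. The groups were apart, with log2 fold changes of 1.07 ± 0.21 and 1.39 ± 0.21. In stroma 5 members were higher in UIR (14.8% of 10635 genes passed, 9.27% as higher) and 7 in UUO (15.4% passed, 9.82% as higher), and none was lower. The 5 were *Bgn*, *Prelp*, *Vcan*, *Gpc1* and *Gpc4*, to which UUO added *Aspn* and *Lum*. Without control replicates 2 and 3, whose names form 1 set, 2 passed in UIR (*Vcan* and *Gpc1*) and 4 in UUO (*Bgn*, *Lum*, *Prelp* and *Vcan*). The shares of all genes given here are those of the fit with all 4 controls.

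*Vcan* had 2 UMIs in control stroma, both from control replicate 1, against 76.3, 49.9 and 47.0 CPM in UIR and 88.4, 73.8 and 72.9 CPM in UUO. Its ratio to control was 17.9 (exact 95% counting interval 4.91 to 148) for UIR and 23.5 (6.46 to 195) for UUO. *Lum* had 1 control UMI and stood at 66.1, 312 and 332 CPM in UUO stroma, a ratio of 154 (27.6 to 6097), while 31.5, 23.3 and 36.6 CPM in UIR did not pass the test (log2 fold change 4.26, adjusted p = 0.064 by edgeR). This UIR difference passed when UUO replicate 1 was left out of the shared fit (4.26, adjusted p = 0.00087) and with DESeq2 (adjusted p = 0.0046). *Prelp* was at 0 to 72.8 CPM in controls, 91.9 to 124 CPM in UIR and 252 to 275 CPM in UUO. In the summed stroma the glypicans went up: *Gpc1* was at 0 to 11.2 CPM in controls, 38.7 to 54.9 CPM in UIR and 24.3 to 33.6 CPM in UUO, and *Gpc4* at 0 to 39.2, 57.5 to 69.1 and 46.3 to 65.5 CPM. In Fibro 3 alone, with libraries summed, *Gpc1* was at 7.52, 6.69 and 5.56 CPM in control, UIR and UUO. *Gpc4* was there at 16.9, 10.0 and 13.9 CPM. These values rest on 2 to 10 UMIs each and were not tested. Thus *Gpc4* was lower over all kept cells and higher in the summed stroma in both injuries. Its call in UUO stroma was lost on leaving out control replicate 2, 3 or 4 or UUO replicate 1 or 3 (adjusted p = 0.052 to 0.091), and that of *Gpc1* without control replicate 4 (adjusted p = 0.064).

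Calls of *Dcn* and *Ogn* in both injuries, of *Aspn* in UIR and of *Fmod* in UUO depended on control replicate 1. *Dcn* was at 2224 CPM in the stroma of that library and at 9.76, 21.0 and 59.2 CPM in controls 2, 3 and 4, against 766 to 1407 CPM in UIR and 1338 to 3027 CPM in UUO. With all 4 controls, *Dcn* had log2 fold changes of 1.04 ± 0.88 and 1.93 ± 0.89 and did not pass (adjusted p = 0.52 and 0.17 by edgeR). Without replicate 1 these were 5.30 and 6.21 and passed (adjusted p = 5.2e-07 and 5.4e-08). *Ogn* was at 420 CPM in replicate 1 and at 0, 0 and 14.8 CPM in the other 3, and its change went from 0.61 to 5.24 in UIR and from 1.58 to 6.23 in UUO when replicate 1 was left out. *Fmod* had 17 UMIs in the stroma of replicate 1, 14 of them in 1 cell, and none in the other controls. In UUO stroma it did not pass with that library (1.89, adjusted p = 0.072 by edgeR) and passed without it (adjusted p = 0.00049), with the remaining controls at 0. It also passed with that library kept and UUO replicate 1 left out (2.14, adjusted p = 0.047). *Aspn* in UIR stroma went from 0.73 (adjusted p = 0.57) to 3.60 (adjusted p = 0.025), and in UUO, where it passed either way, from 2.50 to 5.38. *Prelp* also passed either way and went from 2.26 to 4.12 in UIR and from 3.45 to 5.33 in UUO. Without that library, 8 members thus passed in UIR and 10 in UUO. The controls' stroma was mostly Fibro 3 (97 of 116 cells), whereas Fibro 1 made up 397 of 833 stromal cells in UIR and 491 of 826 in UUO. Stromal makeup therefore differed along with these levels, and its part in them was not tested. With a mitochondrial limit of 15%, 1 member passed in UIR stroma and 4 in UUO stroma.

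Between the injuries, 4 members were higher in UUO than in UIR stroma, where 1.48% of genes passed, 0.771% as higher: *Fmod* (4.09 ± 0.57), *Lum* (2.92 ± 0.42), *Aspn* (1.77 ± 0.35) and *Prelp* (1.19 ± 0.27). Every UUO library lay above every UIR library for each, and the share of all genes that separated in this way was not counted. *Dcn*, *Bgn*, *Vcan*, *Gpc1* and *Gpc4* did not pass, although the libraries were also apart for *Bgn* (higher in UUO) and *Gpc1* (lower in UUO). *Ogn* (0.97, adjusted p = 0.74 by edgeR) passed only without control replicate 1 in the shared fit (0.98, adjusted p = 0.040) among the fits that left out 1 library. The call of *Prelp* was lost in 7 of the fits that left out 1 library (adjusted p = 0.053 to 0.091 by edgeR), and that of *Aspn* without UIR replicate 1 or UUO replicate 2 (adjusted p = 0.067 and 0.058).

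Fibro 1, which holds most of the matrix members, could be compared between the injuries (82 to 204 cells in each UIR library, 143 to 197 in each UUO library), while its 13 control cells allowed no test. Here 5 members were higher in UUO and 1 lower, whereas 3.47% of the 8577 genes tested passed (2.1% higher and 1.38% lower). The median log2 difference of the 10 members was 0.96, against 0.01 over all genes.

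*Aspn* was at 8.45, 3.58 and 5.17 CPM in UIR and at 92.0, 179 and 85.4 CPM in UUO Fibro 1. The log2 difference was 4.21 ± 0.39 (adjusted p = 1.3e-05 by edgeR), and every UUO library was far above every UIR library. *Fmod*, which directs collagen fibril assembly, was at 12.3, 5.96 and 7.75 CPM in UIR and 107, 263 and 116 CPM in UUO (4.09 ± 0.41, adjusted p = 2.0e-05). *Lum* was at 47.6, 51.3 and 68.5 CPM in UIR and 112, 564 and 497 CPM in UUO (2.81 ± 0.42, adjusted p = 0.00079). UUO replicate 1 was the lowest UUO library for *Lum*, yet above all UIR libraries.

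*Prelp* was at 175, 248 and 170 CPM in UIR and 417, 487 and 395 CPM in UUO Fibro 1 (1.11 ± 0.19, adjusted p = 0.0030 by edgeR). *Ogn* was at 144, 247 and 183 CPM and at 371, 812 and 392 CPM (1.45 ± 0.29, adjusted p = 0.0077). *Gpc1* went the other way, with 79.8, 73.9 and 68.5 CPM in UIR and 36.8, 43.2 and 43.7 CPM in UUO (-0.87 ± 0.20, adjusted p = 0.021). For all 6 the libraries of the injuries did not overlap. The share of all genes that separated in this way was not counted, here or in the other comparisons. The call of *Ogn* was lost without UIR replicate 1 (adjusted p = 0.072), and that of *Gpc1* without UIR replicate 1 or 2 or UUO replicate 1 (adjusted p = 0.14, 0.053 and 0.074). The other 4 calls held in all 6 fits that left out 1 library.

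*Dcn* was at 1690, 1677 and 2628 CPM in UIR and 2275, 5497 and 2901 CPM in UUO Fibro 1. Replicates 3 of UIR and 1 of UUO overlapped, and the difference of 0.82 ± 0.29 did not pass (adjusted p = 0.19 by edgeR). *Bgn* was at 3537 to 3992 CPM in UIR and 4159 to 4781 CPM in UUO, apart but close (0.21 ± 0.19, adjusted p = 0.76). *Vcan* (0.28 ± 0.19) and *Gpc4* (-0.39 ± 0.23) overlapped between the injuries. The estimated share of free RNA (RNA from broken cells, as seen in empty droplets) in Fibro 1 UMIs was 0.055 to 0.16 in UIR and 0.054 to 0.071 in UUO, and subtracting it left the same number of calls.

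**Figure D3:**
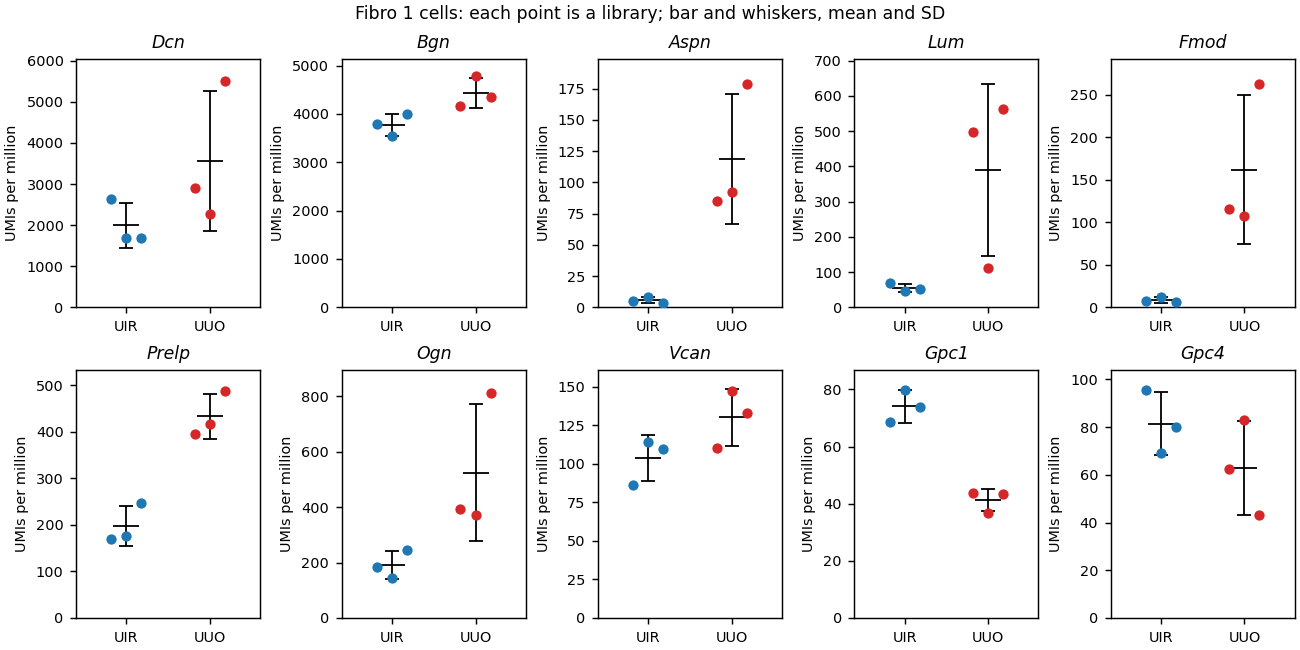
CPM (y axis, linear, from 0) of each gene in Fibro 1 cells of the 3 UIR and 3 UUO libraries; points are libraries, and the bar and whiskers are mean and SD. Aspn, Lum, Fmod, Prelp and Ogn are higher in every UUO library, Gpc1 is lower, and Bgn is nearly level, from 3537 to 4781.

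The members were also counted per Fibro 1 cell, as a description. After thinning to 1000 UMIs, 35.0% of 311 UIR and 55.5% of 326 UUO Fibro 1 cells carried UMIs of at least 3 members, and 2.25% and 11.96% of at least 5. *Fmod* was seen in 0.96% of thinned UIR cells and 12.9% of UUO cells, *Aspn* in 0.64% and 7.98%, *Lum* in 4.18% and 15.3%, and *Ogn* in 17.7% and 34.7%. *Bgn* was seen in 91.6% and 90.5%. Without thinning, *Fmod* was seen in 5.29% of UIR and 22.6% of UUO cells and *Bgn* in 85.1% and 88.8%. For comparison, PT cells, which should lack these matrix genes, carried *Bgn* in 0.44%, *Dcn* in 0.37% and *Fmod* in 0 of 1356 thinned UIR cells. In UUO, with 75 thinned PT cells, *Bgn* and *Dcn* were each seen in 1 cell (1.33%) and *Fmod* in 0. The cells too shallow to thin were 86 in UIR and 165 in UUO.

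Fibro 1 was not uniform. Re-clustered without the members, it fell into 8 sub-clusters (f0 to f7), named by number only. Sub-cluster f4, led by *Meg3*, *Clec3b*, *Sfrp4* and *Pi16*, held 79 cells, of which 76 came from UUO and 2 from UIR. Its *Dcn* level was 10823 CPM, *Lum* 1661 CPM, *Ogn* 1424 CPM, *Fmod* 725 CPM and *Prelp* 588 CPM, in each case the highest of the 8. *Aspn* was high in f4 (215 CPM) and in f5 (189 CPM), whose 67 cells, led by *Rxfp1*, *Thbs4* and *Penk*, all came from UUO. The next highest *Fmod* level was 77.2 CPM in f0, the sub-cluster with the lowest depth (median 750 UMIs), whose leading genes included *Cd74*, *C1qa* and *Kap* of immune and tubular cells.

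*Gpc1* and *Vcan* peaked in other sub-clusters. *Gpc1* was highest in f2 (128 CPM) and f3 (90.0 CPM), which held 71 and 68 cells from UIR and 12 and 13 from UUO. *Vcan* was highest in f3 (234 CPM), followed by f4 (167 CPM) and f5 (163 CPM), and was at 7.60 CPM in f1, where *Bgn* was at 3953 CPM. *Bgn* ranged only from 2766 to 4922 CPM over the 8. The share of f4 was 2.44%, 0% and 0% of Fibro 1 in UIR replicates 3, 1 and 2 and 12.7%, 5.3% and 30.1% in UUO replicates 3, 1 and 2. UUO replicate 2 had the largest share of f4 and the highest *Dcn*, *Ogn* and *Fmod* in Fibro 1.

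Leaving out f4, an alternative chosen after the data were seen, kept 3 of the 6 calls. The log2 difference of *Aspn* went from 4.21 to 3.997, that of *Fmod* from 4.09 to 2.19 and that of *Prelp* from 1.11 to 1.04, and these 3 passed. *Lum* fell from 2.81 to 1.56 (adjusted p = 0.13 by edgeR), *Ogn* from 1.45 to 0.89 (adjusted p = 0.062), and *Gpc1* went to -0.74 (adjusted p = 0.063). Without f0 the number of calls was unchanged at 6.

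**Figure D4:**
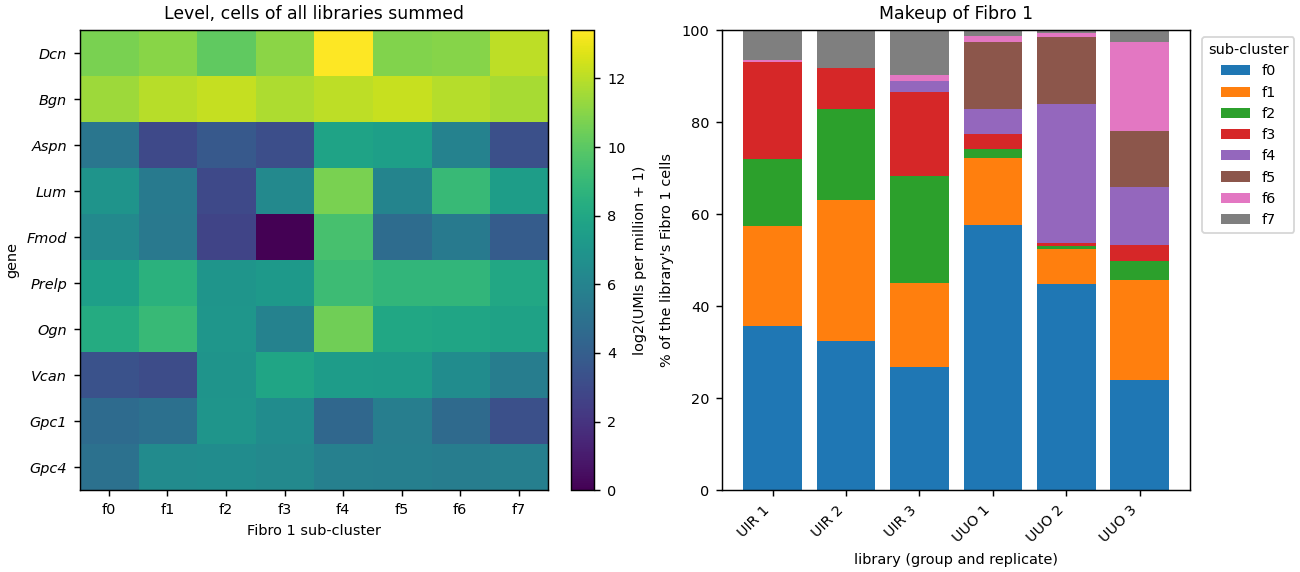
Left, level of each gene (rows) in the 8 Fibro 1 sub-clusters (columns) as log2(CPM + 1), cells of all libraries summed. Right, percent of each UIR and UUO library's Fibro 1 cells in each sub-cluster; f4, where Dcn reaches 10823 and Fmod 725 CPM, takes 5.3% to 30.1% of the UUO bars and at most 2.44% of the UIR bars, and f5 has cells in the UUO bars only.

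In Fibro 2, the contractile class that includes vascular smooth muscle genes, none of the 5 members tested passed between UUO and UIR (edgeR; 0.674% of 6526 genes passed), although all 5 had an unadjusted p under 0.05, as did 560 of the 6526 genes. DESeq2 called 0 of the 4 for which it gave an adjusted p. *Aspn* was at 57.8, 69.6 and 47.2 CPM in UIR and 93.8, 90.9 and 101 CPM in UUO, apart but with an adjusted p of 0.27 (0.64 ± 0.21). *Ogn* was at 120, 176 and 201 CPM in UIR and 96.2, 78.3 and 122 CPM in UUO, an overlap in the direction opposite to Fibro 1 (-0.75 ± 0.22, adjusted p = 0.18); the difference between the classes was not tested. *Dcn* was at 0 to 23.0 CPM in Fibro 2 of all injured libraries, with free RNA at 30.7 CPM in UIR and 170 CPM in UUO on average. *Lum*, *Fmod* and *Vcan* were at most 7.40 CPM.

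Fibro 3 was the one stromal class with controls to compare, 3 controls against 3 UUO libraries. *Bgn* was at 1012, 1019 and 1168 CPM in controls 2, 3 and 4 and 883, 1054 and 796 CPM in UUO, an overlap (-0.34 ± 0.19, adjusted p = 0.45 by edgeR). *Bgn* was thus present in Fibro 3 of control and obstructed kidneys, below its level in Fibro 1. *Dcn* had 2 UMIs in these controls and 63 in UUO, a ratio of 18.2 (exact 95% counting interval 4.84 to 154; adjusted p = 0.015). Of these 63 UMIs, 55 were in UUO replicate 3, and 54 of them in 1 cell, so the value rests on that cell. *Dcn* was the only call of 2 members tested, with 2.2% of 5460 genes passing. Without control replicate 3 or 4 it did not pass (adjusted p = 0.069 and 0.15), and without UUO replicate 3 it was too low to be tested. Only 1 UIR library, replicate 3, had at least 20 Fibro 3 cells, and with it out of the shared fit *Dcn* did not pass the filter on low counts either. With the estimated free RNA subtracted the adjusted p was 0.12.

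Outside the stroma, 12 classes allowed 30 comparisons and 65 member tests, of which 6 passed (7.72% of all gene tests in these comparisons did): *Bgn* in macrophages in both injuries and in PT cells in UIR, and *Dcn* (in 2 comparisons) and *Gpc4* in intercalated cells. In macrophages *Bgn* had 2 UMIs over 5 controls and was at 10.4, 10.5 and 12.9 CPM in UIR and 17.6, 16.9 and 22.1 CPM in UUO. The ratio to control was 6.86 (exact 95% counting interval 1.86 to 57.3) and 11.5 (3.16 to 95.8), with adjusted p = 0.017 and 0.00052 by edgeR, where 6.23% and 10.6% of 9732 genes passed. Free RNA moved with it: *Bgn* averaged 54.0 CPM in the empty droplets of UIR and 213 CPM in those of UUO. In PT cells *Bgn* was higher in UIR (5.01, 3.45 and 1.16 CPM) than in controls (0.450 to 1.34 CPM), with overlapping groups (adjusted p = 0.0090; 8.21% of 11596 genes passed), and without UIR replicate 1 or 2 it was too low to be tested. With the estimated free RNA subtracted, the 3 calls in intercalated cells were left of the 6, and *Bgn* in macrophages had adjusted p = 0.33 in UIR and 0.20 in UUO.

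In endothelial, podocyte and parietal classes the members with readable levels did not pass the test. *Bgn* in endothelial cells was at 41.6 to 187 CPM in controls, 79.2 to 120 CPM in UIR and 122 to 192 CPM in UUO (log2 differences from control -0.03 ± 0.28 and 0.53 ± 0.27). The endothelial clusters did not share 1 pattern: with libraries summed and no test, *Bgn* was at 160, 233 and 436 CPM in control, UIR and UUO cells of the cluster led by *Plvap*, and at 115, 52.3 and 40.2 CPM in the cluster led by *Ehd3*. It was at 246, 167 and 152 CPM in the cluster led by *Fabp4* and at 67.4, 22.6 and 36.4 CPM in that led by *Sox17*. Controls had the highest value in 3 of the 4 clusters, but that of the *Fabp4* cluster rests on 13 UMIs in 45 cells. *Gpc1* in podocytes was at 44.2 to 62.7 CPM in controls and 47.8 to 70.7 CPM in UIR (0.04 ± 0.23), and at 87.6, 67.6 and 0 CPM in UUO, where replicate 3 had 23 podocytes and no *Gpc1* UMI (0.49 ± 0.26). *Bgn* in parietal cells was at 502, 865 and 795 CPM in UIR and 642, 729 and 707 CPM in UUO (-0.08 ± 0.18). A high *Dcn* value in parietal cells of UUO replicate 2 (594 CPM) rested on 1 cell with 198 of 211 UMIs.

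*Vcan* in monocytes could be read in UUO only, where the class had 41 to 63 cells per library. It was at 94.99, 161 and 66.5 CPM in UUO replicates 1, 2 and 3, against 5.71 CPM of free RNA. It was at 0.99 CPM on average in UUO macrophages. Controls and UIR held 10 and 13 monocytes in all.

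*Dcn* was also present in intercalated cells (CD-I), acid-base transporting cells of the collecting duct, in which it was at 11.4 to 75.4 CPM in controls, 50.01, 91.3 and 72.2 CPM in UIR and 22.8, 12.47 and 13.9 CPM in UUO. UUO was lower than UIR (-2.16 ± 0.36, adjusted p = 0.0021 by edgeR; 2.74% of 8620 genes passed) and than control (-1.54 ± 0.40, adjusted p = 0.0067; 24.4% passed), though UUO overlapped controls. With a mitochondrial limit of 15% the difference from UIR was -1.80 (adjusted p = 0.096), and that of UIR from control turned from 0.63 to -2.11, neither of which passed (adjusted p = 0.25 and 0.17). In the empty droplets *Dcn* was at 30.7 CPM in UIR and 170 CPM in UUO. At least 3 *Dcn* UMIs were counted in 33 of 941 intercalated cells, from 10 of the 11 libraries, and the most in 1 cell was 49. These cells were deep, with a median of 31589 UMIs against 4359 in cells with no *Dcn* UMI. In those 33 cells, which were picked for their *Dcn* UMIs, *Bgn* and *Col1a1*, both abundant in Fibro 1, were at 0.96 CPM each and *Col1a2* at 0. The source of the *Dcn* UMIs in these cells was not tested. The cells had high *Slc26a4* (pendrin, the chloride-bicarbonate exchanger of type B cells), at 1332 CPM against 151 CPM in cells with no *Dcn* UMI, and high *Hmx2* (1091 against 149 CPM) and *Insrr* (329 against 56.7 CPM).

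The cells were therefore split by their exchanger, after this was seen and with no test. The 159 cells with more *Slc26a4* than *Slc4a1* UMIs had *Dcn* at 142 CPM and 40.9% of them carried a UMI. The 261 cells with more *Slc4a1*, the exchanger of type A cells, had 4.38 CPM and 5.75%, at a similar depth (median 15469 and 15019 UMIs). The other 521 cells, with neither exchanger in excess, had 9.98 CPM and were shallower (median 1931 UMIs). The *Slc26a4* cells had the higher *Dcn* level in 11 of 11 libraries, but these values rest on few cells: 4 to 37 *Slc26a4* cells per library, and in UUO replicate 3 on 1 UMI in 5 cells. They made up 62 of 248 intercalated cells in controls, 81 of 466 in UIR and 16 of 227 in UUO, and *Dcn* within them was at 81.2, 190 and 132 CPM. Cells with neither exchanger in excess were 118, 257 and 146 in the same order, at a median of 1264, 1584 and 11332 UMIs. They had *Hmx2* at 901, 141 and 0.548 CPM and *Dcn* at 5.12, 18.4 and 5.48 CPM. High *Hmx2* was thus also seen in control cells with little *Dcn*, and these cells differed in kind between the groups. *Dcn* in the whole class, libraries summed, was at 37.8, 65.5 and 16.5 CPM. The share of *Slc26a4* cells was thus lowest in UUO, as was *Dcn*, whereas in UIR it was below that in controls and *Dcn*, at the 30% mitochondrial limit, was not. The part of this share in the difference was not tested. In the same class *Gpc4* was at 9.63 to 30.1 CPM in controls and 37.8, 52.7 and 41.6 CPM in UUO (0.74 ± 0.25, adjusted p = 0.036 by edgeR), groups that did not overlap. That call was lost in 5 fits that left out 1 library and with DESeq2 (adjusted p = 0.063).

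**Figure D5:**
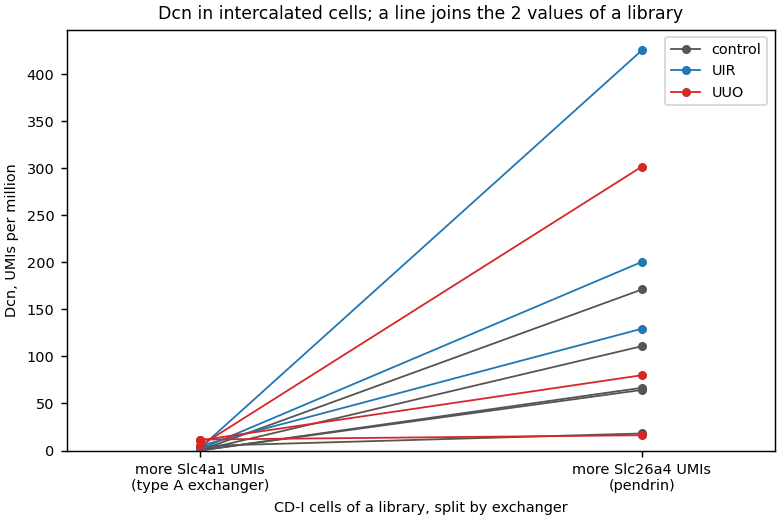
Dcn level (y axis, CPM) in intercalated cells of each of the 11 libraries, split into cells with more Slc4a1 UMIs (left) and more Slc26a4 UMIs (right); a line joins the values of a library and colors mark the group. Every line rises to the right, from at most 11.7 to between 16.2 and 425, with 4 to 37 cells behind each right-hand point.

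The 5 lists of genes that make or accompany proteoglycans were followed in the same fits, in which 9.27% of all genes tested in stroma were higher and 5.56% lower in UIR, and 9.82% and 5.54% in UUO. Of 14 partners of collagen fibrils and of the versican-hyaluronan matrix, 11 were tested in stroma and all 11 were higher than control in both injuries, with median log2 fold changes of 3.08 and 3.83 against 0.12 and 0.11 over all genes. They included *Fn1* (fibronectin; 4.66 ± 0.46 and 5.48 ± 0.45), *Col5a1* (2.91 and 3.50) and *Thbs1* (3.37 and 3.83). Some genes of this list were also naming markers: *Col1a2* and *Col3a1* for stroma, and *Col1a1*, *Fbln1*, *Fbln2* and *Col5a1* for Fibro 1. Fibro 1, which is led by collagen genes of this list, was 13 of 116 stromal cells in controls against 397 of 833 in UIR and 491 of 826 in UUO, so the makeup of the stroma moved with these counts and with those of the other lists, and its part in them was not tested. Of the 24 genes of sulfation and epimerization, which modify the sugar chains, 22 were tested in stroma: 7 were higher and 3 lower in UIR, and 6 and 2 in UUO. *Sulf1*, a sulfatase of heparan sulfate, rose by 3.43 ± 0.57 and 3.63 ± 0.56, and *Hs3st3b1* was lower (log2 fold changes -3.80 and -3.097). Of 20 genes of linker and chain synthesis, 16 were tested in stroma, and 1 was higher in UIR and 3 in UUO, led by the chondroitin sulfate initiating enzyme *Csgalnact1* in UUO (3.93 ± 0.86).

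Of 23 other matrix and cell surface proteoglycans, 14 were tested in stroma, with 4 higher and 3 lower in UIR and 4 and 2 in UUO. *Sdc2*, a syndecan, rose by 1.45 ± 0.26 and 1.52 ± 0.26, and *Sdc3* fell by 1.41 and 0.97. *Gpc3*, a further glypican, fell by 2.81 ± 0.39 in UIR stroma against control and was higher in UUO than in UIR (1.76 ± 0.36). Of 10 other small leucine-rich proteoglycans, 3 were tested in stroma and none passed against control, and *Omd*, the gene between *Aspn* and *Ogn*, was higher in UUO than in UIR (2.98 ± 0.72, adjusted p = 0.046 by edgeR). Within Fibro 1, between the injuries, *Podn* (1.38 ± 0.31), *Gpc3* (2.66 ± 0.52), *Gpc6* (0.82 ± 0.19), *Csgalnact1* (1.99 ± 0.32) and *Eln* (1.09 ± 0.23) were higher in UUO, and *Cspg4* (-1.68 ± 0.25) and *Chst1* (-1.03 ± 0.26) lower, and no other list gene tested there passed. Tested there were 2 other small leucine-rich, 13 other proteoglycan, 14 linker and chain, 20 sulfation and 11 partner genes. Of all 8577 genes, 2.1% were higher and 1.38% lower.

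Over all kept cells the lists went in mixed directions, where 32.3% of all genes were higher and 28.1% lower in UIR, and 38% and 33% in UUO. Of the 12 fibril and versican partners tested, 9 were higher in UIR and all 12 in UUO. Of the 5 other small leucine-rich proteoglycans tested, 1 was higher and 2 lower in UIR, and 2 were higher and 2 lower in UUO. *Podnl1* rose by 2.96 ± 0.28 in each injury, whereas *Podn* fell by 2.35 and 1.98 and *Tsku* by 1.77 and 1.23 on the log2 scale. Of the 18 other matrix and surface proteoglycans tested, 12 were higher in each injury and 1 and 3 lower, led by *Sdc1* (3.12 ± 0.15 and 3.16 ± 0.15) and the hyaluronan receptor *Cd44* (3.01 ± 0.19 and 3.58 ± 0.19). The sulfate donor enzyme *Papss2* fell by 2.31 and 3.84, in contrast to its rise of 4.01 ± 0.92 in UUO stroma.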

How the data were processed

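Single-cell suspensions of 11 mouse kidneys were profiled on the 10x Genomics 3′ platform. The deposited matrices hold whole-number UMI counts per gene and barcode, with no correction for free RNA or doublets. The authors made them with Cell Ranger against mm10. Its version was 3.1.0 per the file headers and the submitters' processing notes, whereas the paper names a later one. All whitelisted barcodes are present, so cells were called anew: barcodes above 0.1 of the 99th percentile of the top 3000 were kept, and those with at least 500 UMIs were tested against the empty-droplet profile (false discovery rate 0.01). Barcodes above 30% mitochondrial or 5% haemoglobin UMIs or under 200 genes were removed, then the 7.5% with the highest simulated-doublet score. Cells were clustered with the Leiden algorithm on a graph of shared nearest neighbors (2000 variable genes, 40 components, 20 neighbors, resolution 1). The members, list genes and naming markers were left out of the clustering. Classes were named from fixed markers that hold no member but share some genes with the list of fibril and versican partners. Class sizes may differ from those of the study.

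UMIs were summed per class and library with at least 20 cells and tested with edgeR 4.0.16 (quasi-likelihood, TMM, all groups in 1 fit, filter on low counts; R 4.3.3), adjusted over all genes tested, with adjusted p under 0.05 called. Fold changes are on the log2 scale with SE, and levels are given as mean ± SD or per library. In simulated counts for UUO against UIR, 70.9% of genes changed 2-fold and 97.8% of those changed 4-fold were called in Fibro 1 (8577 genes). Intervals cover counting error only. Classes were compared with each other without a test. Libraries were grouped by their GEO labels. The replicates numbered 3 of UIR and UUO carry no number in their label, and since the labels do not tie libraries to separate mice, p-values measure the spread between libraries, which may be partly technical.

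The 10 members and the gene lists were chosen with earlier results of these data known. All 10 were followed in every comparison, but not every value is printed. The list genes named were taken from up to 4 genes per list with the smallest adjusted p. The genes most like each member were taken by Pearson correlation of log2(CPM + 1) over class means, and 1 of them is not reported here. Alternatives were DESeq2 1.42.0, no filter, other cell limits, free RNA subtracted, library-total scaling and leaving out libraries.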

Additional observations from a re-analysis of the deposited data

Results flagged for a closer look

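In 9 of the 36 sets of control libraries tested, 1 library lay further from the others than Dixon's 95% limit allows, and in all 9 it was control replicate 1. The sets share libraries and cells and are not independent. Their number therefore cannot be set against a rate of 1 in 20. Over all kept cells *Dcn* was at 24.4 CPM there and at most 3.44 CPM in the other controls, *Aspn* at 0.547 against 0.0869 CPM and *Ogn* at 5.90 against 1.13 CPM. In stroma *Dcn* was at 2224 against 59.2 CPM, *Aspn* at 56.0 against 5.24 CPM, *Fmod* at 95.2 against 0 CPM and *Ogn* at 420 against 14.8 CPM. Over all barcodes *Gpc1* was at 3.47 against 2.08 CPM and *Gpc4* at 55.1 against 30.3 CPM. This library held 9 of the 13 control Fibro 1 cells and was the only one of its set of names, so the library, the set and the cells cannot be told apart.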

How the results depend on the processing

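Of 189 recomputed main values, most of them counts of calls, 169 stayed close to the reported value. Close meant within 1.5 times for counts and within the SD between libraries for the stromal shares of UMIs. With a mitochondrial limit of 15%, 5 members passed in UIR over all kept cells, 1 in UIR stroma and 4 in UUO stroma. UIR stroma gave 9 calls with no filter, 8 without control replicate 1 (the same as without the control set Ctrl) and 2 without the set N, and UUO stroma 4 without the set N. Without sub-cluster f4, chosen after the data were seen, 3 calls were left between the injuries in the fibroblast classes. The Fibro 3 call gave 0 with DESeq2, the 15% limit, doublets kept, pools of at least 10 cells or free RNA subtracted. Classes outside the stroma gave 22 calls with no filter and 3 with free RNA subtracted. The cause of these changes was not tested, and the shares of all genes passing at these settings are not given here.

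Leaving out 1 library at a time gave 9 calls in UIR and 10 in UUO against control over all kept cells, 6 to 8 between the injuries there, 5 to 8 in UIR stroma, 5 to 10 in UUO stroma, 4 to 6 in the fibroblast classes, 0 to 1 in Fibro 3, 5 to 8 outside the stroma and 15 to 18 over all barcodes. Of 1961 recomputed single-gene values, 1800 kept direction and side of the threshold, 95 lost and 54 gained a call, and 12 turned direction. In UIR stroma against control *Aspn* went to -0.37 (15% limit), -0.30 (doublets kept) and -0.053 (without N), *Ogn* to -0.41, -0.10 and -0.30 in the same order, and *Fmod* ranged from -2.85 to 5.77 on leaving out 1 library, with 5.77 without control replicate 1 (or the set Ctrl), and went to 5.92 with at least 1000 UMIs per cell. With the 15% limit *Dcn* in UIR intercalated cells went to -2.11 and *Gpc4* in UIR over all kept cells to 0.064. Scaling by library total, added after the data were seen, moved the median of all genes over all kept cells to 0.41 in UIR and 0.53 in UUO and over all barcodes to 1.08 and 1.54, where *Fmod* in UIR went to 0.12.

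Deviations of UIR and UUO libraries with the same number had correlations of 0.26, 0.049 and 0.32 over all kept cells for replicates 1, 2 and 3. For libraries with different numbers the correlations ranged from -0.32 to 0.11. Deviations within a group are not independent, and whether the numbers pair the libraries was not tested. With the replicate block 7 members passed between the injuries over all kept cells and 6 in the fibroblast classes.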

Other observations

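The genes whose levels were most like those of the secreted members over 49 class means included matrix genes such as *Fbln1*, *Fbn1* and *Col5a1*, beside genes of other kinds. *Dcn* was closest to *Cpxm1*, *Fbln1* and *Mfap5* (Pearson r = 0.82 each), *Bgn* to *Fbn1* (0.94), *Serpine2* and *Mgp* (0.93 each), and *Ogn* to *Ptgis* (0.94), *Lox* and *Prrx1* (0.93 each). *Lum* was closest to *Sfrp4* (0.91), *Cpxm1* (0.89) and *Fbln1* (0.88), *Fmod* to *Hs6st2* (0.83), *Sfrp4* (0.81) and *Itgbl1* (0.79), and *Prelp* to *Gata6* (0.92), *Mfap2* (0.91) and *Col5a1* (0.90). *Aspn* was closest to *Dhx58os* (0.96), with *Alx1* also among the closest (0.91), and *Vcan* was closest to *Pdgfrl* (0.79), *Fbln1* (0.77) and *Igfbp6* (0.76). *Gpc1* was closest to *Akt2* (0.86), *Fzd2* (0.79) and *Tyro3* (0.76), and *Gpc4* to *Slc6a8* (0.90), *Rab34* (0.88) and *Lpcat3* (0.87). The means share libraries and depth, and these values describe likeness only.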
